A study of Rattus norvegicus with 8 samples.

Results

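Mature microRNAs (miRNAs) of miR-137, miR-138, miR-218a and miR-129 were examined in the rat striatum, a forebrain region that controls movement and reward. They were picked by name and not by their values. All 9 names were present among the 752 mature miRNAs of the table, and all 9 passed the low-count filter, as did 507 miRNAs in all. The libraries came from 8 wild-type rats, which the study describes as male Sprague-Dawley rats, with 4 in the saline group and 4 in the methamphetamine (METH) group. METH rats had pressed a lever for intravenous METH, a psychostimulant that releases dopamine. Saline rats had undergone the same catheter surgery and lever training and received saline only. Rats with a stable lever response were chosen by the study, and the age of the animals was not given in the sources used here. Each rat gave 1 small RNA library of 12929302 to 27632443 miRNA counts.

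A miRNA is cut from a hairpin transcript. Either arm of the hairpin, 5p or 3p, can be loaded into the silencing complex, where bases 2 to 8 (the seed) pair with target messenger RNAs. In neurons, miR-137 is known for limiting dendrite growth and neuronal maturation, miR-138 for restraining the size of dendritic spines, and miR-129 for lowering potassium channel translation and for synaptic downscaling. The third family, miR-218, is best known from motor neurons. Its hairpins Mir218-1 and Mir218-2 lie within the axon guidance genes Slit2 and Slit3 in the RefSeq annotation of GRCr8.

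The sequences below set out which members can be told apart by reads. All 9 had a mature sequence in RefSeq (GRCr8), and they are written 5′ to 3′ with the seed in capitals.
rno-miR-137-3p: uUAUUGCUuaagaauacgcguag
rno-miR-137-5p: aCGGGUAUucuuggguggauaa
rno-miR-138-5p: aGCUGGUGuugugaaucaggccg
rno-miR-138-1-3p: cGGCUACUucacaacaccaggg
rno-miR-138-2-3p: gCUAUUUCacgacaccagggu
rno-miR-218a-5p: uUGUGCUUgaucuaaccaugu
rno-miR-129-5p: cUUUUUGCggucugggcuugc
rno-miR-129-1-3p: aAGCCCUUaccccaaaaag
rno-miR-129-2-3p: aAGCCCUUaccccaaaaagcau

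The only seed held by more than 1 member was that of miR-129-1-3p and miR-129-2-3p. Of the 685 miRNAs in the table with a mature sequence in RefSeq, no other miRNA held the seed of any member. Their lengths ran from 19 to 23 bases, so counts were compared between members without a correction for length. The counts of different miRNAs also depend on how well each sequence is captured in the library, which was not tested.

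Each of miR-138-5p, miR-218a-5p and miR-129-5p is encoded by 2 hairpins with the same mature sequence, so its count cannot be assigned to a gene. The 3p arms differ between the hairpins. The hairpins of miR-129 and miR-138 are shown to make this plain, with both arms in capitals.
Mir129-1: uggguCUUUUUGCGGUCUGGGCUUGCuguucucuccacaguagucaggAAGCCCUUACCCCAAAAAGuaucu
Mir129-2: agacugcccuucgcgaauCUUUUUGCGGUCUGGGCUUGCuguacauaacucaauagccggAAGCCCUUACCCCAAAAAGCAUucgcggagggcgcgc
Mir138-1: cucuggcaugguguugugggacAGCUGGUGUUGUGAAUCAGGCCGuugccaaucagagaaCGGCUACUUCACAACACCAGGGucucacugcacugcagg
Mir138-2: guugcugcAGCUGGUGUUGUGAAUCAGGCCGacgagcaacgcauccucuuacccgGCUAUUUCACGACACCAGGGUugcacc

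The annotated miR-129-1-3p of 19 bases is the start of miR-129-2-3p. Over 22 bases from the start of the arm, the hairpins differ by 1 base, U20C, counted from 1 at the 5′ end of miR-129-1-3p with the base of Mir129-1 first. Reads that end before this position fit both hairpins, so the separate counts of these 3p arms are uncertain. The 3p arms of miR-138 differ at 2 of the 20 bases that align. The 8 counts of each member had no common divisor above 1.

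Among all miRNAs, the 4 guide arms were abundant, and their partner arms ranked lower. By mean CPM (counts divided by the library total in units of 1000000 and scaled with trimmed mean of M-values factors) over 8 rats, miR-138-5p ranked 9 and miR-218a-5p ranked 13, while miR-129-5p ranked 41 and miR-137-3p ranked 61. The partner arms ranked 99 for miR-138-1-3p, 108 for miR-138-2-3p, 204 for miR-129-2-3p, 249 for miR-129-1-3p and 309 for miR-137-5p. Together, the 9 members made up 5.07 ± 0.64% of the counts of saline rats and 4.64 ± 0.57% of those of METH rats (SD over 4 rats each). This share overlapped between the groups, with the lowest value, 3.81%, in METH rat 4 and the highest, 6.02%, in saline rat 2 (two-sided exact permutation test, p = 0.514).

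**Figure D1:**
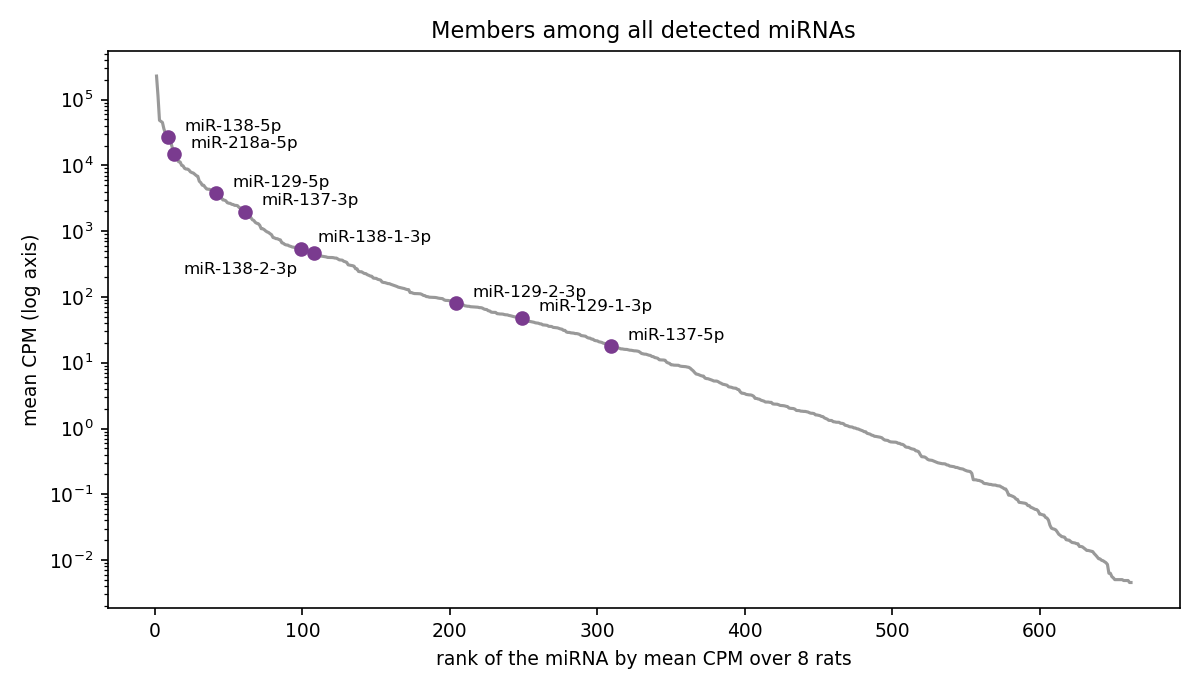
Mean CPM over 8 rats (log axis) against the rank of each detected miRNA (grey line), with the 9 members as points. The guide arms miR-138-5p, miR-218a-5p, miR-129-5p and miR-137-3p sit between ranks 9 and 61, and miR-137-5p is lowest at rank 309.

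In the order of mean CPM, each member was set against the next within each rat, over 8 rats. Neighbours differed beyond the spread between rats in 7 of 8 comparisons (two-sided exact sign-flip permutation test). The order was taken from the same rats, so these tests describe only how steady it was. Mean CPM was 26612 for miR-138-5p and 14704 for miR-218a-5p, and miR-138-5p was higher in 7 of 8 rats, all but METH rat 4 (mean log2 ratio 0.89 ± 0.65 SD, adjusted p = 0.0179, exact test). Next came miR-129-5p at 3812 CPM and miR-137-3p at 1983 CPM. From miR-218a-5p to miR-129-5p the mean log2 ratio was 1.93 ± 0.55 (SD), and from miR-129-5p to miR-137-3p it was 0.94 ± 0.55 (SD), each in the same direction in 8 of 8 rats (adjusted p = 0.0104, exact test). The only neighbours that did not pass the test were miR-138-1-3p at 543 CPM and miR-138-2-3p at 465 CPM, with a mean log2 ratio of 0.22 ± 0.38 (SD, higher in 6 of 8 rats, adjusted p = 0.141, exact test). Without METH rat 4 this ratio was 0.33 and the adjusted p was 0.0312 (exact test). Below them followed miR-129-2-3p at 81.5 CPM, miR-129-1-3p at 48.4 CPM and miR-137-5p at 18.1 CPM. The comparison of the miR-129 3p arms rests on separate counts that are uncertain, as given above.

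The comparison of METH with saline asked whether self-administration went with a different level of these miRNAs. No member passed the threshold in the quasi-likelihood test of edgeR, and adjusted p-values ran from 0.818 to 0.985. The DESeq2 Wald test and the exact and likelihood ratio tests of edgeR also called 0 of 9 members, unadjusted or adjusted. Over all 507 miRNAs, these tests in turn called 8, 6 and 7 adjusted and 34, 32 and 33 unadjusted. In the quasi-likelihood test, an adjusted p under 0.05 was reached by 0 of 9 members, where the percentage over all 507 miRNAs tested was 0%. An unadjusted p under 0.05 was likewise reached by 0 of 9 members, against 5.52% of all miRNAs tested. A fitted fold of 1.5 or more in either direction occurred in 0 of 9 members, against 16.8% of all miRNAs. This count of members was 1, miR-138-1-3p, with library totals in place of the scaling factors (log2 fold change -0.61) and without METH rat 3 (-0.69). The 16.8% belongs to the fit of all 8 rats with the scaling factors, and the share under these settings is not given here. Over all miRNAs tested, the median log2 fold change was -0.12 with library totals and -0.067 without METH rat 3. The groups overlapped in every member, whereas they did not overlap in 3.16% of all miRNAs. The fitted value was above 0 for 1 member, miR-218a-5p, and below 0 for 8 members, where all miRNAs tested had 240 above and 267 below. With RLE or upper quartile factors or in DESeq2, it was above 0 for 4 members and below 0 for 5. The members had a median log2 fold change of -0.13, beside -0.023 over all miRNAs tested. In whole striatum, fewer cells of a type cannot be told apart from less miRNA per cell.

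**Figure D2:**
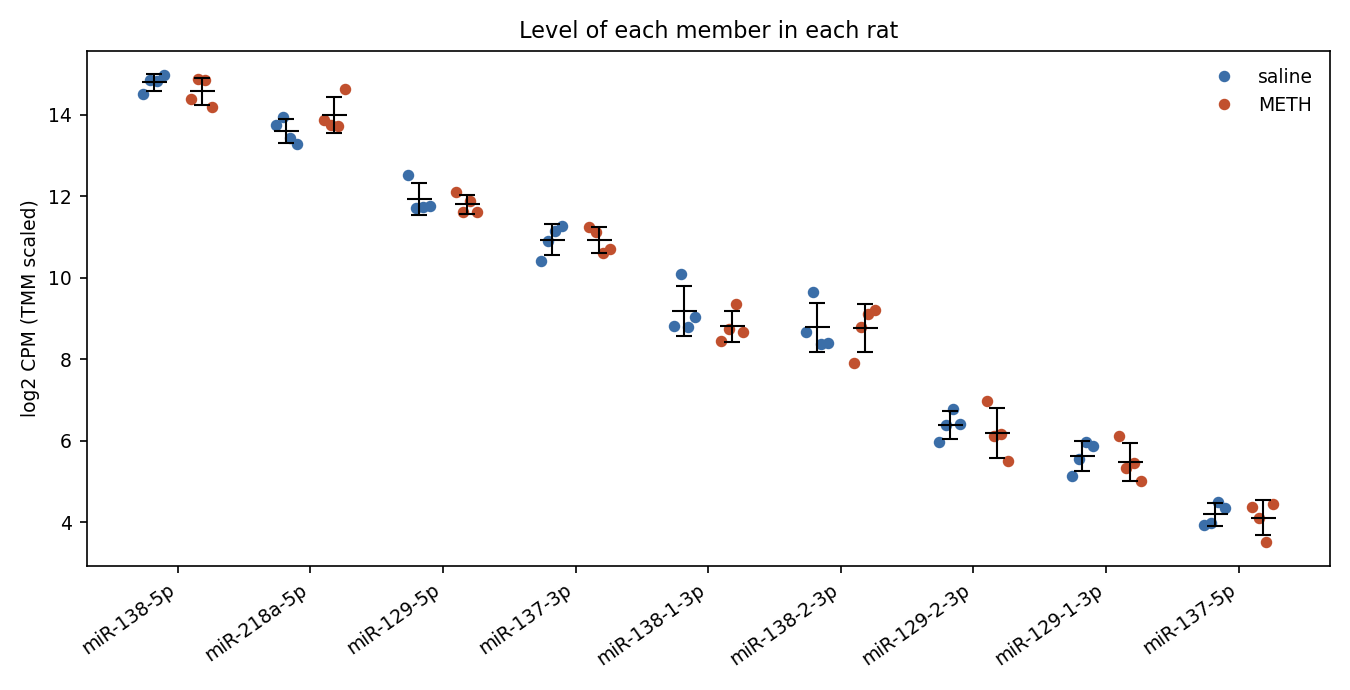
Level of each member as log2 CPM, with 1 point per rat (4 saline, 4 METH), bars for the mean and whiskers for the SD on the log2 scale. The groups overlap for every member, METH rat 4 lies highest for miR-218a-5p at 14.6 log2 CPM, and saline rat 1 lies highest for miR-129-5p at 12.5 log2 CPM.

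The most abundant member was miR-138-5p, the arm that acts on dendritic spines. In saline rats 1 to 4 it was at 23143, 29251, 29143 and 32297 CPM. In METH rats 1 to 4 it was at 21473, 29823, 29278 and 18488 CPM. METH rats 1 and 4 were below every saline rat, and METH rats 2 and 3 lay within the saline range. Means were 28458 ± 3833 CPM for saline and 24765.5 ± 5662 CPM for METH (SD over 4 rats each). The fitted log2 fold change was -0.20 ± 0.23 (SE, 95% interval -0.72 to 0.32, adjusted p = 0.921 in the edgeR test). It was -0.075 without METH rat 4, -0.35 without METH rat 2 and -0.11 with upper quartile factors. Its dispersion was low, at percentile 5.72 of all miRNAs tested, which makes miR-138-5p the steadiest member between rats.

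The 3p arms of miR-138 come from separate genes, Mir138-1 and Mir138-2, and saline rat 2 was highest for both. For miR-138-1-3p the saline rats were at 451, 1089.6 (saline rat 2), 441 and 524 CPM, and the METH rats at 350, 428, 653 and 406 CPM. METH rats 1, 2 and 4 were below every saline rat, and METH rat 3 lay within the saline range. The log2 fold change was -0.45 ± 0.34 (SE, 95% interval -1.21 to 0.31, adjusted p = 0.818 in the edgeR test), the lowest value among the members. It was -0.029 without saline rat 2. For miR-138-2-3p the saline rats were at 408, 804 (saline rat 2), 333 and 339 CPM. Its METH rats were at 240.5, 445, 555 and 593 CPM, with METH rat 1 below and the other METH rats above 3 of the 4 saline rats. Here the log2 fold change was -0.039 ± 0.37 (SE, adjusted p = 0.985 in the edgeR test), and it was 0.37 without saline rat 2. The highest and the lowest rat differed by 3.11-fold for miR-138-1-3p and 3.34-fold for miR-138-2-3p, against 1.75-fold for miR-138-5p.

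The largest fitted increase belonged to miR-218a-5p. Saline rats 1 to 4 were at 13657.5, 15698, 11057 and 9887 CPM. METH rats 1 to 4 were at 14860.0, 13767, 13378 and 25331 CPM. METH rat 4 was above all other rats, and the other METH rats lay within the saline range. The log2 fold change was 0.42 ± 0.27 (SE, 95% interval -0.19 to 1.03, adjusted p = 0.818 in the edgeR test), from means of 12575 ± 2611 CPM (SD, n = 4) and 16834 ± 5699.5 CPM (SD, n = 4). Without METH rat 4 it was 0.17, and with library totals it was 0.24.

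METH rat 4 also stood apart from the other libraries over all miRNAs, at -21.5 on the first principal component against -2.83 to 7.29. As an unscaled share of counts, miR-218a-5p in this rat was 1.94%, against 0.970% to 1.81% in the other rats, so its distance from them was smaller without the scaling factor of 0.766 for this library. Markers of other tissues also differed there. The 3 choroid plexus markers were each at their highest and summed to 7105 CPM in METH rat 4 against 2745 to 3546 CPM in the 7 other rats. The 3 erythrocyte markers in the table summed to 2817 CPM against 342 to 648 CPM, with miR-451-5p and miR-144-3p at their highest and miR-144-5p within the range of the others. The sums of the vascular, oligodendrocyte and muscle markers were also highest there, but miR-126a-5p, miR-145-5p, miR-219a-5p, miR-338-3p and miR-133a-3p among them were at their lowest. The 4 markers of hindbrain and spinal cord, where miR-218 is also expressed, summed to 53.7 CPM in this rat, within the range of 7.35 to 66.8 CPM in the others. Of this sum, 51.0 CPM was miR-10a-5p alone, and the other markers of the list were at only 0.84 to 1.08 CPM in this rat. The sum of the 5 microglia and leukocyte markers was lowest there, 693 CPM against 1082 to 2099 CPM. Of this sum, 665 CPM was miR-150-5p, which was also at its lowest. By contrast, miR-223-3p was highest, 14.0 CPM against 2.64 to 4.08 CPM, and miR-142-3p, miR-142-5p and miR-155-5p lay within the range of the others. None of these markers was at 0 over all rats. The neuronal markers went in opposite directions in METH rat 4. There miR-124-3p was at its lowest, 97752 CPM against 127824 to 342449 CPM in the others, and miR-9a-5p at its highest, 204524 CPM against 82989 to 115872 CPM. For miR-128-3p this rat was at 10087 CPM, within the range of 7840.1 to 12541 CPM in the others. The part of any of these markers in the level of miR-218a-5p was not tested.

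For miR-129-5p, saline rat 1 was far above the rest. The saline rats were at 5897, 3367, 3373 and 3439 CPM, and the METH rats at 4372, 3134, 3796 and 3119 CPM. METH rats 1 and 3 lay between saline rat 1 and the other saline rats, and METH rats 2 and 4 lay below them all. The log2 fold change was -0.16 ± 0.25 (SE, 95% interval -0.71 to 0.40, adjusted p = 0.939 in the edgeR test), and it was 0.13 without saline rat 1.

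Saline rat 1 was not high for the partner arms of miR-129. For miR-129-1-3p the saline rats were at 35.1, 46.9, 62.2 and 58.3 CPM and the METH rats at 69.2, 40.1, 43.5 and 32.1 CPM. For miR-129-2-3p the values were 62.5, 83.0, 110.2 and 85.2 CPM in saline rats and 126.5, 68.6, 71.0 and 44.9 CPM in METH rats. In both arms, METH rat 1 was highest, METH rat 4 was lowest and saline rat 1 was the lowest saline rat. The log2 fold change was -0.13 for both, with SEs of 0.31 and 0.33 (edgeR test, adjusted p = 0.978). Without METH rat 1 these became -0.39 and -0.47.

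Of all members, miR-137-3p had the fitted change nearest to 0 with trimmed mean of M-values scaling. With RLE factors the nearest was miR-137-5p at 0.0081, and with upper quartile factors it was miR-129-2-3p at -0.00036. The level of miR-137-3p was 1356, 1910.2, 2255 and 2469.5 CPM in saline rats 1 to 4. In METH rats 1 to 4 it was 2430.1, 2237, 1545 and 1660.2 CPM. Every METH rat lay within the saline range. Means were 1998 ± 486 CPM for saline and 1968 ± 432 CPM for METH (SD over 4 rats each). The fitted log2 fold change was -0.021 ± 0.25 (SE, 95% interval -0.58 to 0.54, adjusted p = 0.985 in the edgeR test). The interval therefore spans changes of under 1.5-fold in either direction. Its partner miR-137-5p was at 15.3, 15.7, 22.6 and 20.4 CPM in saline rats and at 20.7, 17.2, 11.3 and 21.7 CPM in METH rats, from 279 to 620 counts per library. METH rat 3 was lowest for miR-137-5p and the others lay within the saline range (log2 fold change -0.063 ± 0.28 SE, adjusted p = 0.978 in the edgeR test). The directions of miR-137-3p, miR-137-5p and miR-138-2-3p turned with RLE or upper quartile scaling.

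**Figure D3:**
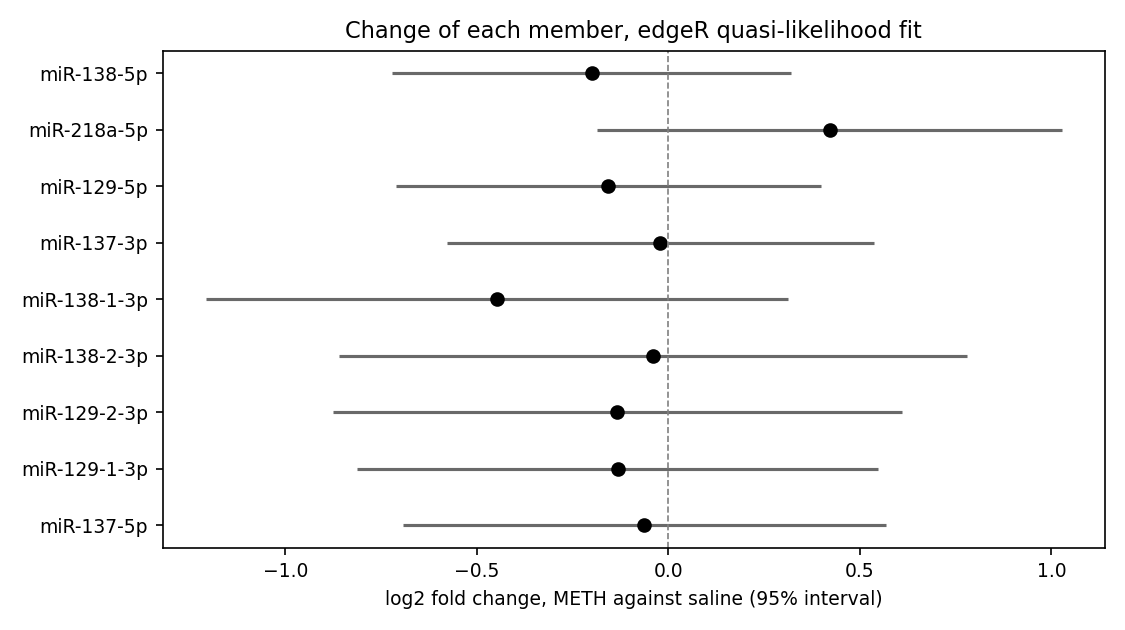
Log2 fold change of each member, METH against saline, from the edgeR quasi-likelihood fit (points) with 95% intervals (lines). All 9 intervals include 0, and that of miR-218a-5p, at 0.42, runs from -0.19 to 1.03.

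Arm ratios were examined next, since a ratio of 2 counts within a library needs no scaling. They were computed as log2 of the counts plus 0.5 for 9 pairs. In miR-137 the 3p arm dominated. The log2 ratio of miR-137-5p to miR-137-3p averaged -6.74 ± 0.22 in saline and -6.81 ± 0.38 in METH rats (SD over 4 rats each), and in every rat the 5p count was 0.00730 to 0.0131 of the 3p count. In miR-138 and miR-129 the 5p arm dominated. The count of miR-138-5p was 26.8 to 69.8 times that of miR-138-1-3p and 31.2 to 95.2 times that of miR-138-2-3p. For miR-129-5p the ratio was 54.2 to 168 times miR-129-1-3p and 30.6 to 94.3 times miR-129-2-3p, with the highest value of both in saline rat 1. Because each 5p count pools both hairpins, these ratios belong to no single hairpin.

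The strongest arm bias was in miR-218a. Its 3p arms, which are not among the 9 members, are needed for the ratio. The 3p arm of Mir218-1, miR-218a-1-3p, had 23 to 53 counts per library, and that of Mir218-2, miR-218a-2-3p, had 222 to 699. The log2 ratio of miR-218a-5p to miR-218a-2-3p was 9.51, 9.86, 8.76 and 8.63 in saline rats 1 to 4. In METH rats 1 to 4 it was 8.95, 9.26, 9.30 and 10.89, with METH rat 4 highest of all rats. METH rat 4 combined the highest 5p level with the lowest miR-218a-2-3p level, 13.3 CPM against 16.9 to 29.9 CPM. The annotated miR-218b, of which 20 bases are complementary to miR-218a-5p, on the opposite strand of the Mir218-1 locus, had 0 counts in all 8 libraries, where 3 counts per library are the limit that a count of 0 allows.

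No arm ratio passed the test between METH and saline. Differences in log2 ratio ran from -0.36 for miR-138-1-3p to miR-138-2-3p up to 0.41 for miR-218a-5p to miR-218a-1-3p. Without METH rat 4 these were -0.17 and 0.12. The p-values ran from 0.229 to 0.971 and were 0.971 for all 9 pairs after adjustment (two-sided exact permutation test, for which the smallest p is 0.0286). The groups overlapped in every pair.

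**Figure D4:**
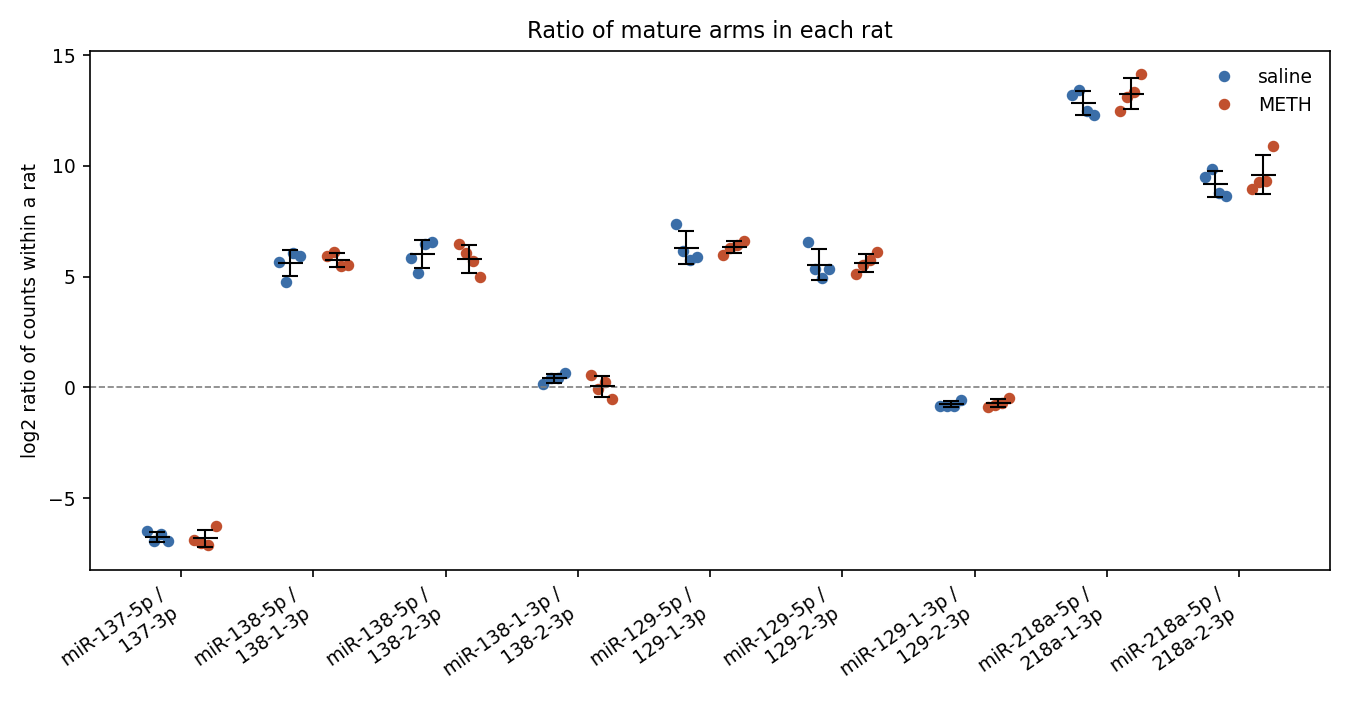
Log2 ratio of the counts of 2 mature arms within each rat for 9 pairs, with 1 point per rat (4 saline, 4 METH), bars for the mean and whiskers for the SD. The ratio is below 0 for miR-137, above 0 for each 5p arm of miR-138, miR-129 and miR-218a, and below 0 in all 8 rats for miR-129-1-3p to miR-129-2-3p (-0.87 to -0.48). For miR-138-1-3p to miR-138-2-3p it runs from -0.55 to 0.63.

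The 3p arms give a count per hairpin where the 5p arm does not, with the uncertainty given above for miR-129. Of the 3p counts of miR-138, miR-138-1-3p took 52.5%, 57.5%, 57.0% and 60.7% in saline rats 1 to 4. In METH rats 1 to 4 it took 59.3%, 49.0%, 54.1% and 40.7%. The share in METH rat 4 had a Wilson 95% interval of 39.9% to 41.4% and lay below those of all other rats, of which the next, METH rat 2, had an interval of 48.2% to 49.7%. These intervals cover counting error only, and copies made by PCR are not independent molecules.

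In miR-129, the share of miR-129-1-3p was 36.0%, 36.1%, 36.1% and 40.6% in saline rats and 35.4%, 36.9%, 38.0% and 41.7% in METH rats. Saline rat 4 and METH rat 4 were the highest, with Wilson 95% intervals of 39.0% to 42.2% and 39.0% to 44.4%. The other rats lay between 35.4% and 38.0%. The log2 ratio of these arms had an SD over 8 rats of 0.14, against 0.38 for the 3p arms of miR-138.

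Covariation of arms was measured over 8 rats for the same 9 pairs. The miR-129 3p arms went together most closely (Pearson r = 0.96, exact permutation p = 4.96e-05, adjusted p = 0.000446). Their Spearman rho was 1.00 at the same p-values, the smallest that the pairings allow. Without the METH rats farthest from the median, 1 and 4, r was 0.94, and within groups it was 0.93 for saline and 0.99 for METH. These arms share their first 19 bases, so their counts are not independent of how reads were assigned.

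The arms of miR-137, the only pair cut from a single hairpin, had r = 0.61 (rho = 0.60, adjusted p = 0.228, and 0.385 for rho, exact permutation test), and r was 0.13 without saline rat 1 and METH rat 3. For miR-138-1-3p and miR-138-2-3p, which come from different hairpins, r was 0.75 (rho = 0.48, adjusted p = 0.105 and 0.438, exact permutation test), and 0.22 without saline rat 2 and METH rat 3. For miR-218a-5p, which pools both hairpins, and miR-218a-2-3p, r was -0.75 (rho = -0.55, adjusted p = 0.105 and 0.385, exact permutation test). It was -0.33 without saline rat 4 and METH rat 4, -0.39 without METH rat 4 alone and -0.47 with library totals. Within groups it was -0.96 for saline and -0.82 for METH. The 5 other pairs had r between -0.36 and 0.50 with adjusted p-values from 0.363 to 0.915, and from 0.385 to 0.935 for rho (exact permutation test). Among them, miR-129-5p and miR-129-1-3p had r = -0.88 within the saline group and 0.92 within the METH group, each over 4 rats, and 0.66 over all rats but saline rat 1.

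The miRNAs with the most similar pattern over 8 rats were sought for the most abundant member of each family among 498 other miRNAs. They were chosen as the highest correlations, so no test applies. For miR-137-3p they were miR-190a-3p (r = 0.99, rho = 0.98) and miR-142-5p (r = 0.98, rho = 0.98). For miR-138-5p they were miR-31a-3p (r = 0.95, rho = 0.88) and miR-383-3p (r = 0.91, rho = 0.81). Those of miR-218a-5p were miR-93-5p (r = 0.93, rho = 0.74) and miR-411-5p (r = 0.92, rho = 0.88), and without saline rat 4 and METH rat 4 their r fell to 0.61 and 0.81. The pattern of miR-129-5p was nearest to those of miR-130b-5p (r = 0.85, rho = 0.86) and miR-212-5p (r = 0.84, rho = 0.76), with r of 0.74 and 0.76 without saline rat 1 and METH rat 1. Levels were low for miR-130b-5p, at 0.60 to 1.48 CPM, and for miR-142-5p, at 1.26 to 3.85 CPM. All of these values share the library scaling.

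The wider set of 20 other neuron-enriched miRNAs was also examined. It includes miR-124 and miR-9, which set neuronal identity, and miR-134, which acts at dendritic spines. All 20 were tested, 0 passed at an adjusted p under 0.05 and 0 at an unadjusted p under 0.05 in the edgeR test, where all miRNAs tested had 0% and 5.52%. Of the 20 fitted values 12 were above 0 and 8 below, beside 240 above and 267 below over all miRNAs. Their median log2 fold change was 0.095, beside -0.023 over all miRNAs tested and -0.13 for the 9 members. The lowest was that of miR-135a-5p at -0.76 ± 0.35 (SE) and the highest that of miR-485-5p at 0.60 ± 0.59 (SE), with adjusted p-values of 0.818 and 0.881.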

How the data were processed

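Striatal small RNA of 8 rats, 4 saline and 4 METH, had been sequenced as 1 library per rat. The deposited values were raw counts of reads per mature miRNA, which the authors made on rn6. Their processing notes name cutadapt 1.18, STAR 2.7.0e and featureCounts of Subread 1.6.4. The miRNA annotation release, the handling of unique molecular identifiers and the rule for reads that align to several loci were not given in the sources used here. Such a rule bears on mature miRNAs with several loci. A miRNA missing from a library could be below its depth of 12929302 to 27632443 counts, and 90 of 752 miRNAs had no count in any library.

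From these counts, miRNAs were filtered with filterByExpr at a minimum count of 10, scaled by trimmed mean of M-values (TMM) and tested by quasi-likelihood in edgeR 4.0.16 (R 4.3.3). P-values were adjusted by Benjamini-Hochberg over the 507 miRNAs tested, with a threshold of 0.05. CPM are counts per 1000000 of a TMM-scaled library, and the log2 CPM used a prior count of 2, and arm ratios were log2 of counts with 0.5 added. Arm ratios, level order and covariation were tested by exact permutation over rats, adjusted over their own family. The scripts were tested on simulated counts. Alternatives were other scalings, filters and tests (DESeq2 1.42.0 among them), a replicate block and leaving out each rat. The rats are called 1 to 4 in each group after the sample titles, in which equal numbers stand for different animals. The columns of the table carry other numbers, none of them in both groups, and the deviations of same-numbered rats correlated at -0.36 to -0.15, so they were not paired. The 9 members and the lists of other miRNAs were chosen with earlier results of these data known. Every member was named, beside the other miR-218 arms and, for the most abundant member of each family, the 2 miRNAs with the most similar pattern.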

Additional observations from a re-analysis of the deposited data

Results flagged for a closer look

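Of 36 groups of 4 values examined (the log2 CPM of each member and each arm ratio, in each treatment), 3 held a rat far from the others, where chance gives about 1 in 20. For miR-218a-5p, METH rat 4 was at 14.63 log2 CPM and the other METH rats at 13.71 to 13.86. With library totals, chosen after seeing the data, it was at 14.24 log2 CPM and no longer stood apart by the same limit.

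For miR-129-5p, saline rat 1 was at 12.53 log2 CPM and the other saline rats at 11.72 to 11.75. With library totals, also chosen after seeing the data, it was at 12.62 log2 CPM against 11.71 to 11.92, and its gap to the nearest rat, 0.766 of the range, was within the limit. For miR-129-1-3p to miR-129-2-3p, the log2 ratio in saline rat 4 was -0.55, and in the other saline rats it was -0.83 to -0.82.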

How the results depend on the processing

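Over all miRNAs, 0 passed an adjusted p under 0.05 in the edgeR quasi-likelihood test (28 unadjusted), 8 in the DESeq2 Wald test, 6 in the edgeR exact test and 7 in the likelihood ratio test, and 0 to 5 with a rat left out, 5 without METH rat 1. No member passed under any of the 18 alternatives, and the lowest adjusted p was 0.535, without METH rat 1. The cause of these differences was not tested. The small fold changes turned with scaling. With RLE factors, upper quartile factors and DESeq2, the log2 fold change of miR-137-3p was 0.034, 0.099 and 0.034, that of miR-137-5p 0.0081, 0.060 and 0.0068, and that of miR-138-2-3p 0.031, 0.072 and 0.031. The median over all miRNAs also moved, to -0.12 with library totals, 0.033 with RLE and 0.080 with upper quartile factors. The other 81 of 90 values kept their direction.

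With each rat left out, the log2 fold change ran from -0.14 to 0.082 for miR-137-3p, -0.16 to 0.089 for miR-137-5p, -0.20 to 0.37 for miR-138-2-3p, -0.26 to 0.13 for miR-129-5p, -0.39 to 0.018 for miR-129-1-3p and -0.47 to 0.070 for miR-129-2-3p. It kept its direction at -0.35 to -0.075 for miR-138-5p, -0.69 to -0.029 for miR-138-1-3p and 0.17 to 0.58 for miR-218a-5p. The difference in arm log2 ratio ran from -0.26 to 0.022 for miR-137, -0.13 to 0.31 and -0.48 to 0.080 for miR-138-5p against miR-138-1-3p and miR-138-2-3p, -0.15 to 0.39 and -0.12 to 0.42 for miR-129-5p against miR-129-1-3p and miR-129-2-3p, -0.027 to 0.12 between the miR-129 3p arms, -0.53 to -0.17 between the miR-138 3p arms, and 0.12 to 0.68 and -0.022 to 0.63 for miR-218a-5p against miR-218a-1-3p and miR-218a-2-3p. The smallest exact p with a rat left out is 0.0286. Pearson r ran from -0.27 to 0.45 for miR-138-5p with miR-138-2-3p (0.20 with library totals), -0.30 to 0.66 for miR-129-5p with miR-129-1-3p (0.40 with library totals) and -0.19 to 0.67 for miR-129-5p with miR-129-2-3p (0.50 with library totals). The order of levels kept its directions with each rat left out.

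With the replicate block, 0 miRNAs passed, and the log2 fold change was 0.38 for miR-218a-5p and -0.22 for miR-138-5p (adjusted p = 0.997 in the edgeR test). Equal numbers in the sample titles stand for different animals, so the block pairs nothing. It turned no member's direction. With 4 rats a group, the 95% intervals of several members include changes of 1.5-fold.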
